A study of Mus musculus with 11 samples.

Results

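The transcripts described here encode the alpha2, alpha3, alpha4, alpha5 and delta subunits of the GABA-A receptor, from the genes Gabra2, Gabra3, Gabra4, Gabra5 and Gabrd. The genes were chosen by symbol, not by their values, and all 5 were found among the 22377 genes of the deposited hippocampal table. Cap analysis of gene expression (CAGE), which captures and counts the capped 5' ends of RNAs, had been run on the hippocampi of male C57BL/6N mice, dissected whole. The study asked how a cortical stroke and the anti-seizure drug levetiracetam (LEV) bear on the balance of excitation and inhibition in the hippocampus.

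The 11 libraries came from 10 photothrombosis (PT) groups and 1 naive group, with 1 library each. In PT, light activates the dye rose bengal and clots vessels; here 35 mg/kg of the dye and a 565 nm LED over a 3.5 mm circle of the left parietal region for 30 min were used. Each of 5 PT conditions gave an infarcted and a non-infarcted side: PT 7 d LEV, PT 7 d, PT 1 m LEV, PT 1 m and PT 2 m after LEV withdrawal. The naive mice were untreated, and no side is given for them. Mice drank LEV freely, dissolved at 5 mg/mL. The study's text describes 2 weeks of LEV that began a month after PT, so the timing of LEV in the 7 d animals is not explained by it. Withdrawal lasted 1 week in that text and 2 weeks in the sample labels. The mice were 8 to 10 or 65 to 85 weeks old, but the labels do not say which age a library came from, how many animals it held, or whether the sides were taken from 1 set of animals. With 1 library per group, the tests below take spread from the pairs and conditions, and that spread may be partly technical. Library totals were 13382623 to 22377376 reads.

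GABA-A receptors are chloride channels made of 5 subunits, usually alpha and beta subunits with either a gamma or a delta subunit. Receptors with alpha2 and a gamma subunit sit at synapses, including those on the axon initial segment of pyramidal cells, and carry brief (phasic) inhibition. Receptors with alpha5 lie largely outside synapses of hippocampal pyramidal cells, and alpha4 with delta forms extrasynaptic receptors of dentate granule cells that carry lasting (tonic) inhibition and respond to neurosteroids. The alpha3 subunit is prominent in immature cortex and in the thalamic reticular nucleus, and is a minor subunit of the adult hippocampus.

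All 5 are protein-coding genes on the minus strand of GRCm38, and their identifiers matched GENCODE M21 with the version number. Gabra2 (ENSMUSG00000000560.9) lies at chr5:70957597-71095849, and Gabra4 (ENSMUSG00000029211.11) at chr5:71569749-71658308, with start sites 562459 bases apart. Gabra5 (ENSMUSG00000055078.7) lies at chr7:57407672-57510059, Gabra3 (ENSMUSG00000031343.13) at chrX:72432681-72656848 and Gabrd (ENSMUSG00000029054.8) at chr4:155384980-155398112. Gabra4 starts 195 bases from Gabrb1 (the beta1 subunit) on the opposite strand, and the gene models overlap there. Gabra5 also overlaps gene models on the opposite strand, and so does Gabra3 (Gm14735 and Gm23461), which holds Mir767 and Mir105 on its own strand. No source used here says whether the authors counted reads by strand, so the division of reads between Gabra3, Gabra4 or Gabra5 and the genes they overlap is uncertain.

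CAGE reads start at promoters, so the promoter sequences of the members are shown. RefSeq (GRCm38.p6) held promoter entries for 4 of the 5 genes, the exception being Gabrd. The 250 bases before the annotated start are printed 5' to 3' on the gene's own strand, and capitals mark each TATAAA or GGGCGG match, on either strand.
Gabra2 promoter, chr5:71095850-71096099 (minus strand): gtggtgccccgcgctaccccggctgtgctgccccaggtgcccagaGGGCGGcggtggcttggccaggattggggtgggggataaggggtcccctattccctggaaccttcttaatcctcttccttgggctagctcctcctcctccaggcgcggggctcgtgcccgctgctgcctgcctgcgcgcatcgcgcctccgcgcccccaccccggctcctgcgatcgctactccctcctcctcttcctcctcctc
Gabra3 promoter, chrX:72656808-72657057 (minus strand): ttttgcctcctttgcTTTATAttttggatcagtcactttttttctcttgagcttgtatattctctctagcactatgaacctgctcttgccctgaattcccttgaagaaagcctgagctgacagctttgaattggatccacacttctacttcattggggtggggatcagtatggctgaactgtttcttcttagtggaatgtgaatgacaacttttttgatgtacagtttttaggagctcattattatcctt
Gabra4 promoter, chr5:71658309-71658558 (minus strand): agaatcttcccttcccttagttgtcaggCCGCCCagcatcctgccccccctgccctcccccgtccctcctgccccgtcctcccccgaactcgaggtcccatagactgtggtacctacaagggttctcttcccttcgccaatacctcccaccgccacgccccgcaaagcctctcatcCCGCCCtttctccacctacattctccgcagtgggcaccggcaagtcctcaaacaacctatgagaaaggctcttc
Gabra5 promoter, chr7:57510060-57510309 (minus strand): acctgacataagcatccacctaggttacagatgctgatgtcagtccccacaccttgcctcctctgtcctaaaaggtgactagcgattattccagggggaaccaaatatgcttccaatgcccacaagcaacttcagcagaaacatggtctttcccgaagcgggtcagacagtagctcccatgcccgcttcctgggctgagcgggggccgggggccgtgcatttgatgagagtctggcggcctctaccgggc

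The base composition of these promoters differed widely. Over the 300-base windows that reach 50 bases past the start, GC content was 70.0% for Gabra2, 58.7% for Gabra4, 56.7% for Gabra5 and 39.3% for Gabra3, against a median of 52.7% over 32851 mouse promoter windows. Gabra2 had 25 CpG dinucleotides, Gabra5 had 13 and Gabra4 had 12, whereas Gabra3 had 0. A second RefSeq start of Gabra3 gave a window with 43.0% GC, also with 0 CpG. Only 8.92% of all windows had a lower GC content than the first Gabra3 window, and 90.4% had a lower one than the Gabra2 window.

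Several short motifs were searched on both strands of the 300-base windows. The GC box GGGCGG, which 35.7% of all windows hold, occurred at -205 and at 6 in Gabra2, counted from the start site, and at -222 and -74 in Gabra4. The TATA box letters TATAAA, found in 13.6% of all windows, occurred on the strand opposite to Gabra3 at -235. The cAMP response element TGACGTCA (1.79% of windows) and its shorter form TGACG (20.8%), the EGR sites GCGTGGGCG (0.612%) and GCGGGGGCG (2.91%), and the E-box forms CAGCTG (16.3%) and CACGTG (7.15%) were not found in the member windows. TGACG is contained in TGACGTCA. A match describes letters only, and no match says nothing of a factor's binding.

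Gabra5 was the most abundant of the 5 transcripts in all 11 libraries, and Gabra2 came next, ahead of Gabra4, in 10 of them. Each capped RNA gives a tag whatever its length, so CPM (reads scaled to the library total) were compared between genes without a length correction. Over the 11 libraries Gabra5 averaged 216 ± 26.1 CPM, Gabra2 88.0 ± 9.65 CPM, Gabra4 73.0 ± 6.60 CPM, Gabrd 22.7 ± 2.59 CPM and Gabra3 18.6 ± 4.77 CPM (SD, n = 11). These means put Gabra5 at rank 765, Gabra2 at rank 2385, Gabra4 at rank 3010, Gabrd at rank 7947 and Gabra3 at rank 8716 among all genes. Gabra5 stood apart from the rest, Gabra2 and Gabra4 were neighbours whose ranges overlapped, and so were Gabrd and Gabra3.

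**Figure D1:**
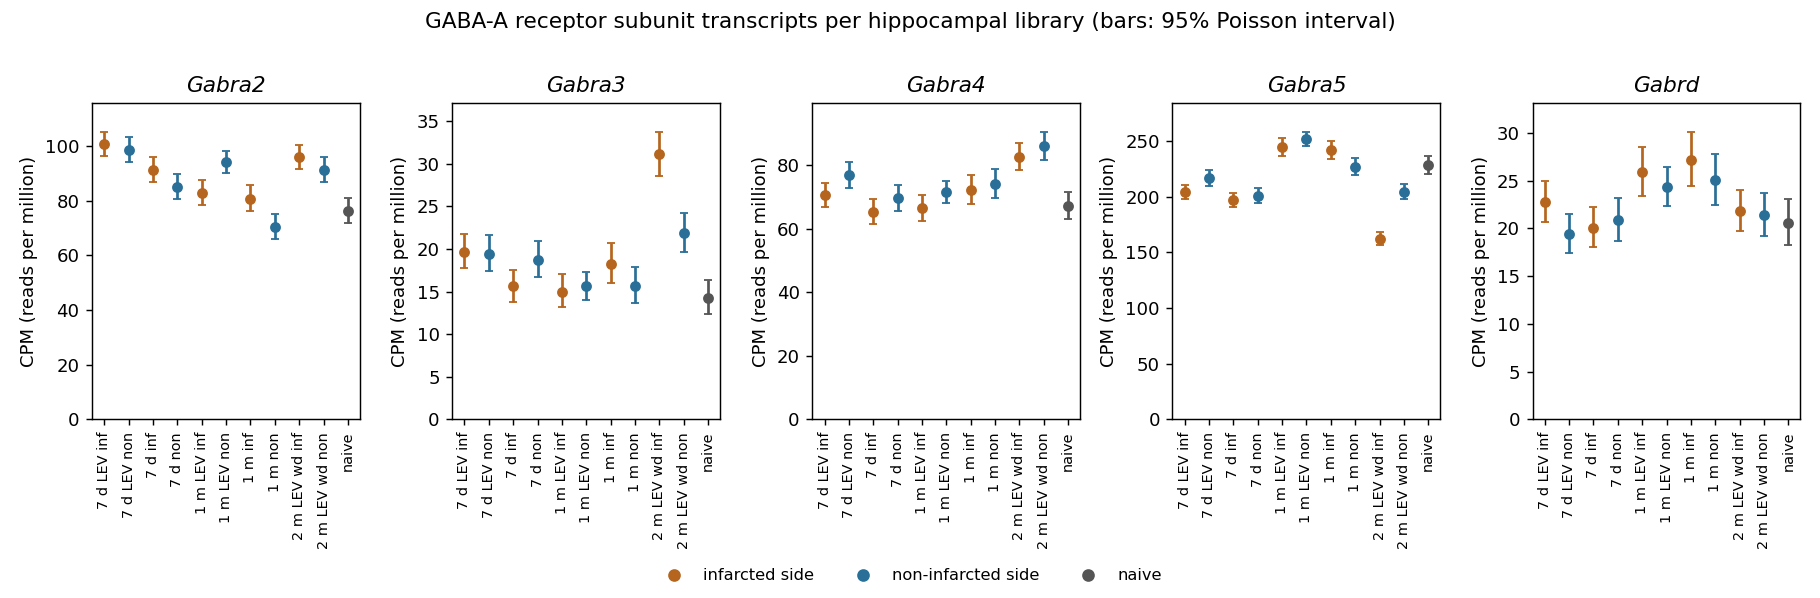
CPM of Gabra2, Gabra3, Gabra4, Gabra5 and Gabrd in each of the 11 libraries, infarcted and non-infarcted sides of each PT condition and naive; each point is 1 library. Gabra5 lies between 162 and 252 CPM, and Gabra3 reaches its highest level, 31.1 CPM, in the infarcted library of PT 2 m after LEV withdrawal.

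Gabra5, the extrasynaptic subunit of pyramidal cells, had 204 CPM (infarcted) and 217 CPM (non-infarcted) in PT 7 d LEV, 197 and 201 CPM in PT 7 d, 244 and 252 CPM in PT 1 m LEV, 242 and 227 CPM in PT 1 m, 162 and 204 CPM in PT 2 m after LEV withdrawal, and 228 CPM in naive. The 4 libraries at 1 m were all above the 4 at 7 d, and the infarcted library at 2 m was the lowest of the 11. Its 95% counting interval was 156 to 168 CPM, from 2976 reads.

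Gabra2, the alpha subunit of phasic inhibition, had 101 CPM (infarcted) and 98.8 CPM (non-infarcted) in PT 7 d LEV, 91.3 and 85.0 CPM in PT 7 d, 83.0 and 94.2 CPM in PT 1 m LEV, 80.9 and 70.5 CPM in PT 1 m, 96.0 and 91.2 CPM in PT 2 m after LEV withdrawal, and 76.3 CPM in naive. The PT 7 d LEV libraries were the highest, and the lowest was the non-infarcted library of PT 1 m. In 9 of the 10 PT libraries the level was above naive.

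Gabra4, the partner of delta in granule cells, had 70.5 CPM (infarcted) and 76.8 CPM (non-infarcted) in PT 7 d LEV, 65.3 and 69.6 CPM in PT 7 d, 66.4 and 71.4 CPM in PT 1 m LEV, 72.3 and 74.0 CPM in PT 1 m, 82.7 and 86.0 CPM in PT 2 m after LEV withdrawal, and 67.3 CPM in naive. Both 2 m libraries were above the other 9. In each condition the infarcted side was the lower of the pair.

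Gabrd, the delta subunit, had 22.7 CPM (infarcted) and 19.4 CPM (non-infarcted) in PT 7 d LEV, 20.1 and 20.9 CPM in PT 7 d, 25.9 and 24.3 CPM in PT 1 m LEV, 27.2 and 25.04 CPM in PT 1 m, 21.8 and 21.4 CPM in PT 2 m after LEV withdrawal, and 20.6 CPM in naive. The 4 libraries at 1 m were the highest of the 11. The 2 m and naive libraries lay within the range of 7 d.

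Gabra3, the minor alpha subunit, had 19.7 CPM (infarcted) and 19.4 CPM (non-infarcted) in PT 7 d LEV, 15.6 and 18.7 CPM in PT 7 d, 15.0 and 15.6 CPM in PT 1 m LEV, 18.2 and 15.6 CPM in PT 1 m, 31.1 and 21.8 CPM in PT 2 m after LEV withdrawal, and 14.3 CPM in naive. Naive was the lowest and both 2 m libraries were the highest. The intervals for counting error were 28.6 to 33.8 CPM in the infarcted and 19.7 to 24.2 CPM in the non-infarcted 2 m library, against 12.4 to 16.4 CPM in naive.

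Gabra3 was also the most variable member. Its coefficient of variation over the 11 libraries was 25.6%, of which counting error alone would give 5.86%. Among 3094 genes within 1.5-fold of its mean level, 90.2% had a lower coefficient of variation. For the other 4 members that share was 23.5% (Gabra4) to 45.8% (Gabra5), so each varied less than the median gene of its level. For Gabra4 the coefficient was 9.05%, against a median of 12.6%, and for Gabra5 12.1% against 12.7%.

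The share of each gene in the summed level was also compared between libraries. The 5 genes together held 389 to 457 CPM in a library. Gabra5 made up 41.2 to 56.2% of this sum, Gabra2 17.1 to 24.4%, Gabra4 15.3 to 21.0%, Gabrd 4.50 to 6.18% and Gabra3 3.41 to 7.90%. The infarcted library of PT 2 m after LEV withdrawal had the highest share of Gabra2, Gabra3 and Gabra4 and the lowest of Gabra5. There Gabra3 equalled 19.2% of the Gabra5 level, whereas the lowest such ratio was 6.13%, in the infarcted library of PT 1 m LEV. Ratios within a library do not depend on how the library was scaled: Gabra5 over Gabra2 ran from 1.69 in that 2 m library to 3.22 in the non-infarcted library of PT 1 m.

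**Figure D2:**
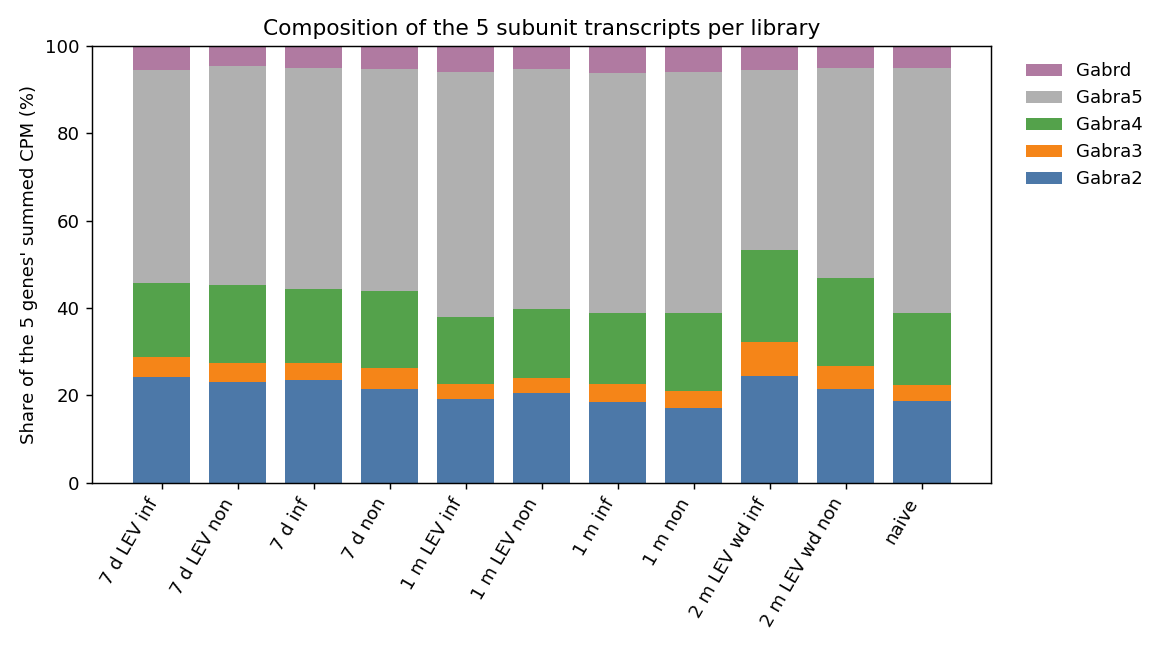
Share (%) of the summed CPM of the 5 genes held by each gene, per library; each bar is 1 library and sums to 100%. Gabra5 holds 41.2% in the infarcted 2 m library and up to 56.2% elsewhere, and Gabra3 between 3.41% and 7.90%.

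To ask whether the infarcted side differed from the non-infarcted side, the 5 side differences of log2(CPM + 1), 1 per condition, were tested with limma, with p-values adjusted by the Benjamini-Hochberg method over 16057 genes with a mean of at least 1 CPM. Gabra5 averaged 210 ± 34.3 CPM on the infarcted side, against 220 ± 20.5 CPM on the other (SD, n = 5), a log2 difference of -0.08 ± 0.06 (SE; limma adjusted p = 0.772). Gabra2 averaged 90.4 ± 8.45 CPM and 88.0 ± 10.96 CPM on the infarcted and non-infarcted side (0.04 ± 0.05, limma adjusted p = 0.890). These groups overlapped for every member.

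Gabra4 was lower on the infarcted side in 5 of 5 pairs, at 71.5 ± 6.93 CPM against 75.6 ± 6.43 CPM (SD, n = 5), with a log2 difference of -0.08 ± 0.04 (limma adjusted p = 0.692). An exact two-sided sign-flip permutation test of the 5 pairs gave the smallest p that 5 pairs allow, which is above 0.05. Of all tested genes, 2.71% were lower on the infarcted side in every pair and 5.26% were higher, with 0 members among those. Gabrd averaged 23.5 ± 2.94 CPM on the infarcted side, against 22.2 ± 2.39 CPM on the other (0.08 ± 0.06, limma adjusted p = 0.799). Gabra3 averaged 19.9 ± 6.55 CPM and 18.3 ± 2.66 CPM on those sides (0.08 ± 0.09, limma adjusted p = 0.875), and without the 2 m pair its difference was -0.02.

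No member passed the 0.05 threshold between sides, and neither did any other gene: 0.0% of genes were called in either direction by limma. At an unadjusted p below 0.05 limma gave 1221 genes (7.6%), of which 0 were members, and edgeR on recovered reads also called 0 genes. The 95% intervals of the side differences ran from -0.18 to 0.01 for Gabra4 and from -0.12 to 0.29 for Gabra3. Summed microglial markers were 743 to 1484 CPM on the infarcted side, against 612 to 725 CPM on the other, and markers of neighbouring neocortex, thalamus and striatum 305 to 370 CPM and 276 to 336 CPM. Their part in the result was not tested. In tissue RNA, fewer cells of a type and less RNA per cell cannot be told apart.

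To ask whether LEV shifted the subunits, the means of both sides of PT 7 d LEV and PT 1 m LEV were set against PT 7 d and PT 1 m in limma, with time as a term. Gabra2 averaged 94.2 ± 7.94 CPM with LEV and 81.9 ± 8.74 CPM without (SD, n = 4), a log2 difference of 0.20 ± 0.12 (limma adjusted p = 0.825; 95% interval -0.04 to 0.44). It was higher with LEV in 4 of 4 pairs matched for time and side, by 0.14 and 0.21 at 7 d and by 0.04 and 0.41 at 1 m on the log2 scale (infarcted, then non-infarcted). The libraries with and without LEV overlapped for all 5 members, whereas 1.51% of tested genes had all 4 LEV libraries above and 1.73% below the 4 without.

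Gabra5 averaged 229 ± 22.7 CPM with LEV and 216 ± 21.5 CPM without (SD, n = 4), also higher in 4 of 4 pairs, with a log2 difference of 0.08 ± 0.12 (limma adjusted p = 0.948). For comparison, 8.65% of tested genes were higher and 12.4% lower in all 4 pairs. Gabra4 averaged 71.3 ± 4.30 CPM with LEV and 70.3 ± 3.80 CPM without (0.02 ± 0.12, limma adjusted p = 0.984). Gabra3 had 17.4 ± 2.48 CPM with LEV and 17.1 ± 1.67 CPM without (0.02 ± 0.14, limma adjusted p = 0.984), and Gabrd 23.1 ± 2.77 CPM and 23.3 ± 3.40 CPM (-0.01 ± 0.13, limma adjusted p = 0.993). The sign of the last 3 turned under other settings, so no direction is given for them.

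No member was called for LEV, where limma called 0.0125% of genes higher and 0.00623% lower. At an unadjusted p below 0.05 there were 980 genes (6.1%), with 0 members, and edgeR on recovered reads called 7 genes, with 0 members. This fit has 1 residual degree of freedom and borrows 21.6 from the other genes. The interval for Gabra5 reached from -0.17 to 0.33, so a moderate difference in either direction was not detectable with these libraries.

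Whether the LEV difference was another one at 1 m than at 7 d was tested, after the data had been seen, with the 8 libraries as independent and side as a term. Both sides of a condition may share animals, in which case these p-values are too small. The LEV difference at 1 m minus that at 7 d was -0.21 ± 0.10 for Gabra4 (SE; limma adjusted p = 0.248) and -0.32 ± 0.17 for Gabra3 (limma adjusted p = 0.331). Limma called 0 members, beside 1.59% of genes higher and 1.2% lower, and at an unadjusted p below 0.05 there were 3280 genes (20.4%), with 0 members.

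The contrast of 1 m with 7 d gave the differences nearest to the threshold. Processing batches are not given in the labels, so time after PT cannot be told apart from a difference in processing. Gabrd averaged 25.6 ± 1.24 CPM at 1 m, against 20.8 ± 1.45 CPM at 7 d (SD, n = 4), a log2 difference of 0.29 ± 0.13 with an unadjusted p of 0.0323 and a limma adjusted p of 0.127. Gabra5 averaged 241 ± 10.5 CPM at 1 m, against 204 ± 8.62 CPM at 7 d (0.24 ± 0.12, limma adjusted p = 0.197). For these 2 genes all 4 libraries of 1 m were above all 4 of 7 d, as they were for 10.8% of tested genes; 0 members had all 4 of 1 m below, which 19.1% of genes did. Neither passed in the fit that averages the sides. Both passed where the 8 libraries were taken as independent (limma adjusted p = 0.0155 for Gabrd and 0.0124 for Gabra5). That fit called 4991 of the 16057 tested genes, and its p-values are too small if both sides of a condition share animals.

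The differences of the other 3 members between 1 m and 7 d did not pass either. Gabra2 averaged 82.2 ± 9.73 CPM at 1 m, against 94.0 ± 7.22 CPM at 7 d (SD, n = 4; log2 difference -0.20 ± 0.12, limma adjusted p = 0.279), with 4 of 4 pairs below 0. Gabra3 averaged 16.1 ± 1.45 CPM at 1 m, against 18.4 ± 1.88 CPM at 7 d (-0.18 ± 0.14, limma adjusted p = 0.411). Gabra4 averaged 71.0 ± 3.28 CPM at 1 m, against 70.6 ± 4.76 CPM at 7 d (0.01 ± 0.12, limma adjusted p = 0.967). Groups overlapped for these 3 genes.

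The count of 0 members called at 1 m against 7 d stands beside 5.71% of genes higher and 10.1% lower, and beside 4746 genes (29.6%) at an unadjusted p below 0.05, of which 1 was a member. edgeR on recovered reads called 2439 genes and 0 members. The median log2 difference of the members was 0.01, and that of all tested genes -0.06. Several marker lists moved with time. Summed CA1 markers were 375 to 450 CPM at 1 m and 312 to 343 CPM at 7 d, with 2 of 7 genes called higher, and interneuron markers 1545 to 2022 CPM and 1247 to 1508 CPM, with 5 of 11 called higher. Dentate granule markers overlapped, at 526 to 616 CPM at 1 m and 541 to 598 CPM at 7 d, with 1 of 9 called higher, 1 lower and none at 0. CA2 and CA3 markers also overlapped, at 690 to 859 CPM at 1 m and 780 to 870 CPM at 7 d. Of these 9 genes 2 were called higher and 0 lower, 5 were below 0, and the median log2 difference was -0.12. Of the glial lists, 4 of 9 astrocyte and 4 of 12 microglial markers were called lower, though their sums overlapped between the times. Pan-neuronal markers were 7054 to 7613 CPM at 1 m and 7933 to 8706 CPM at 7 d, with 1 of 12 called higher and 1 lower. Choroid plexus markers fell in 10 of 10 genes, to 28.8 to 144 CPM at 1 m against 215 to 314 CPM at 7 d, and were lowest in the infarcted library of PT 1 m and the non-infarcted library of PT 1 m LEV. The part of these cell types in the member differences was not tested. Without those 2 libraries no member passed either.

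**Figure D3:**
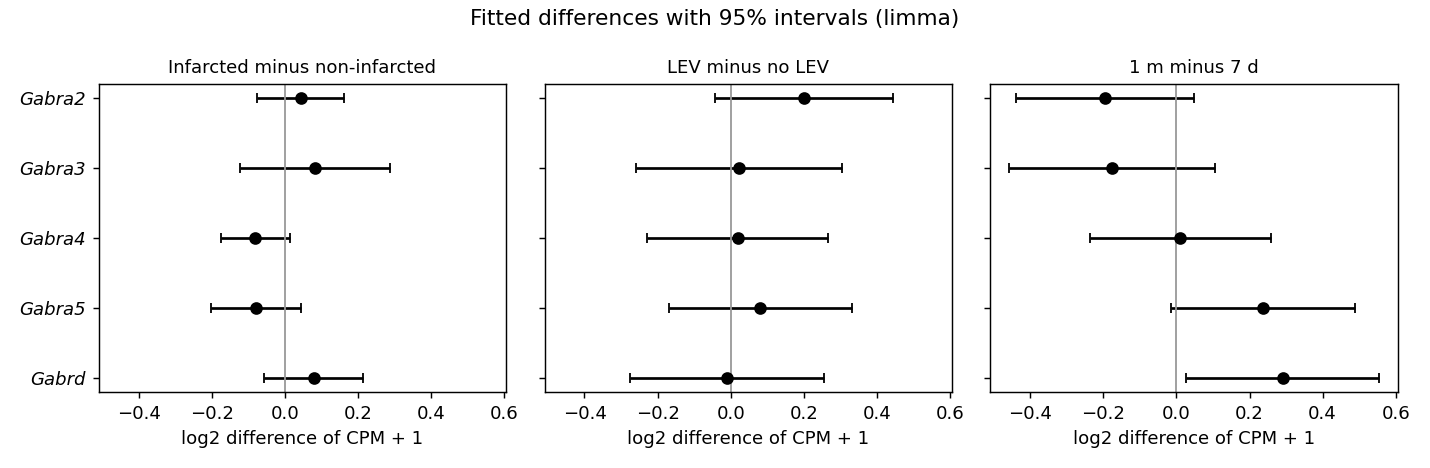
Log2 difference of CPM + 1 for each gene in 3 limma contrasts (infarcted minus non-infarcted, LEV minus no LEV, 1 m minus 7 d); points are estimates and bars 95% intervals. The interval of Gabrd at 1 m against 7 d, 0.03 to 0.56, is the only 1 of the 15 that leaves out 0, and its adjusted p is 0.127.

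Whether the side difference itself changed with time or with LEV was tested on the 4 side differences of 7 d and 1 m, a fit with 1 residual degree of freedom. The change with time was largest for Gabra3, at 0.19 on the log2 scale (limma adjusted p = 0.846), and the change with LEV for Gabra2, at -0.22 (limma adjusted p = 0.813). Limma called 0 members in both. Over all genes it called 0.0% in either direction by time, with 1062 genes at an unadjusted p below 0.05, and 0.181% higher and 0.0% lower by LEV.

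At 2 m, after LEV had been stopped, Gabra3 and Gabra4 had their highest levels and Gabra5, on the infarcted side, its lowest, but there was 1 library per side and no test. Relative to the PT 1 m LEV library of the same side, Gabra3 differed by 1.01 (infarcted) and 0.46 (non-infarcted) on the log2 scale, and Gabra5 by -0.59 and -0.30. Gabra4 differed by 0.31 and 0.27, Gabrd by -0.24 and -0.18, and Gabra2 by 0.21 and -0.05. None passed 1.5-fold (0.585 on the log2 scale) on both sides, whereas 9.4% of tested genes did so upward and 6.45% downward. Time and withdrawal change together in this comparison and cannot be told apart.

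Against the PT 7 d LEV library of the same side, the 2 m differences of these 2 extremes, Gabra3 and Gabra5, were smaller. Gabra3 differed by 0.64 (infarcted) and 0.16 (non-infarcted), and Gabra5 by -0.33 and -0.09. Again 0 members passed 1.5-fold on both sides, as 0.716% of tested genes did upward and 2.25% downward. Both 2 m libraries were above the other 9 for Gabra3 and Gabra4, which held for 18.2% of all tested genes, and 11.9% had both below. Summed pan-neuronal markers were 8964 and 9102 CPM in the 2 m libraries, above the 7054 to 8706 CPM of the 7 d and 1 m libraries. Against naive, 1 of these 12 genes was past 1.5-fold higher on both sides and 1 past it lower. CA1 markers were 342 and 350 CPM at 2 m, against 455 CPM in naive. Of these 7 genes 2 were past 1.5-fold lower on both sides and 0 higher. CA2 and CA3 markers were 893 and 1032 CPM at 2 m, against 949 CPM in naive, with 4 of 9 lower and 0 higher. In the same comparison 1 of 9 dentate granule markers was lower and 0 higher, and 0 of 11 interneuron markers passed either way. Myelinating oligodendrocyte markers were 4315 and 5062 CPM at 2 m, against 3165 CPM in naive. At 2 m against naive, 4 of 9 astrocyte markers (median log2 difference 0.77), 4 of 12 microglial and 1 of 8 oligodendrocyte markers were past 1.5-fold higher on both sides. Of 10 choroid plexus markers 8 were past that line against PT 1 m LEV. Against naive 0 of these 10 were past it higher and 1 lower, with a median log2 difference of -0.72. Markers of neighbouring neocortex, thalamus and striatum, regions that also express Gabra3, were 276 to 322 CPM at 2 m and 326 CPM in naive. The part of all these marker lists in the result was not tested.

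Each PT condition was also set against the single naive library, which all 5 comparisons share. Gabra3 was above naive in all 10 PT libraries, as were 8.3% of tested genes, and 0 members were below it in all 10, as 8.69% of genes were. Its log2 differences from naive were 0.44 and 0.42 in PT 7 d LEV, 0.12 and 0.37 in PT 7 d, 0.06 and 0.12 in PT 1 m LEV, 0.33 and 0.12 in PT 1 m, and 1.07 and 0.58 in PT 2 m after LEV withdrawal (infarcted, then non-infarcted). On the scale of CPM + 1, the non-infarcted 2 m value was just under the 1.5-fold line (0.585). With a pseudocount of 0.5 in place of 1 it was past that line. Gabra5 was farthest below naive in the infarcted 2 m library, at -0.49, with -0.16 in the non-infarcted 2 m library and -0.21 and -0.18 in PT 7 d.

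Gabra5 and the other 3 members stayed within 1.5-fold of naive in all 10 PT libraries. Gabra2 differed by 0.40 and 0.37 in PT 7 d LEV (infarcted, then non-infarcted), Gabrd by 0.39 and 0.27 in PT 1 m, and Gabra4 by 0.29 and 0.35 at 2 m. On the scale of CPM + 1, no member passed 1.5-fold on both sides in any condition. The share of genes that did so upward was 1.68% in PT 7 d LEV, 1.94% in PT 7 d, 1.43% in PT 1 m LEV, 0.243% in PT 1 m and 5.71% at 2 m, and downward 2.62%, 3.06%, 1.89%, 1.18% and 6.1% in the same order.

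**Figure D4:**
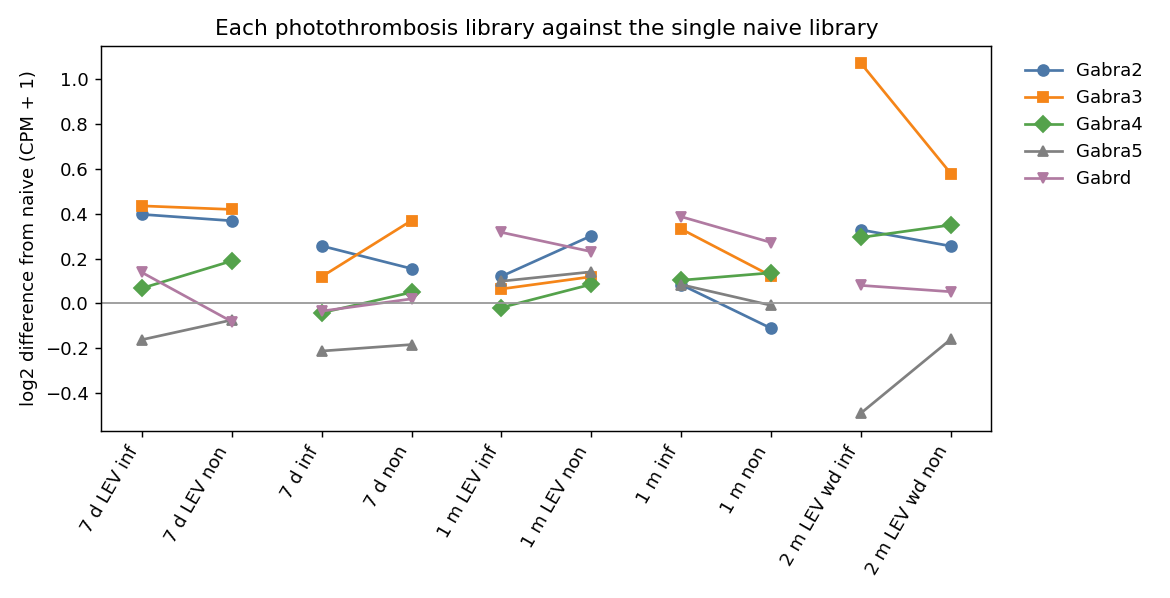
Log2 difference of CPM + 1 from the naive library for each gene in the 10 PT libraries; each point is 1 library, so no error is shown, and lines join the sides (inf, infarcted; non, non-infarcted; wd, withdrawn). Gabra3 is above 0 throughout and reaches 1.07 in the infarcted 2 m library, where Gabra5 is at -0.49.

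Among the other subunits of the receptor, 10 of 14 genes were in the table and 8 were tested. At 1 m against 7 d, limma called 1 of the 8 higher and 0 lower. At 2 m, against naive on both sides, 1 of the 8 was more than 1.5-fold higher and 1 more than 1.5-fold lower. The higher one was Gabrg1 (a gamma subunit and neighbour of Gabra2), at 30.0 CPM on average against 15.0 CPM. The subunit neighbours Gabrb1 and Gabrg3 differed between 1 m and 7 d by -0.18 and 0.03 (limma adjusted p = 0.315 and 0.908). None of the 8 was called between sides or for LEV.

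Genes that serve the receptor and its transmitter are set beside the 5.71% of all tested genes called higher and the 10.1% called lower at 1 m against 7 d. Of 9 genes of GABA supply and removal, all 9 were above 0 at 1 m against 7 d and 4 were called higher, among them the GABA transporter Slc6a11 (0.82, limma adjusted p = 0.000119) and the GABA-synthesizing enzymes Gad1 (0.42, limma adjusted p = 0.0216) and Gad2 (0.42, limma adjusted p = 0.0175). Slc6a11 averaged 97.2 ± 20.2 CPM at 1 m, against 54.4 ± 10.2 CPM at 7 d (SD, n = 4). Of 20 genes of receptor assembly and anchoring, 1 was called higher and 4 lower. Insyn1, an inhibitory synapse protein, was the higher one (0.67, limma adjusted p = 0.000552). In that list Gabarap, which binds gamma subunits and takes part in receptor trafficking, was lower (-0.58, limma adjusted p = 0.00195), as were Ubqln1, Clptm1 and Rdx. Rdx encodes radixin, which anchors alpha5 receptors outside synapses, and its difference was -0.35 (limma adjusted p = 0.0459).

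Of 8 tested genes of chloride balance, 0 were higher and 1 lower, the kinase Stk39 (-0.44, limma adjusted p = 0.0144). Slc12a5, the chloride exporter KCC2 and the most abundant of this list, averaged 342 ± 45.4 CPM at 1 m, against 297 ± 26.2 CPM at 7 d (SD, n = 4). None of the 3 tested genes of neurosteroid synthesis was called. In these 4 lists 0 genes were called between sides and 0 for LEV. The change of side difference with LEV passed for 1 gene of the 4 lists, the GABA transporter Slc6a13 (2.12, limma adjusted p = 0.0187), chosen here after its value was seen. In the same contrast 10 of 10 choroid plexus markers were above 0, with a median log2 value of 1.92 and 0 called, and the sums of these markers were lowest in the infarcted library of PT 1 m and the non-infarcted library of PT 1 m LEV; their part in the result was not tested.

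By the likeness of their pattern over the 11 libraries, among 11566 genes with a mean of at least 5 CPM, the genes nearest to each member were ranked, and the nearest are named. Gabra5 was most like Scn8a, a voltage-gated sodium channel (Pearson r = 0.96, Spearman rho = 0.88), Cd47 (r = 0.95) and Borcs6 (r = 0.95). Gabra3 was most like Fam92a (r = 0.95), Kcnmb2, a potassium channel subunit (r = 0.95), and Rwdd2a (r = 0.94). Among the 3 genes nearest to Gabra2 were Marchf6, a ubiquitin ligase (r = 0.92), and Rpgr (r = 0.91). Gabra4 was most like Aaas, a nuclear pore protein (r = 0.95), Zfp72 (r = 0.92) and Zfp281 (r = 0.92), and Gabrd most like Arl4c, a small GTPase (r = 0.90), Rnf215 (r = 0.90) and Rfesd (r = 0.88). The libraries share conditions and times, so these values describe the pattern and carry no p.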

How the data were processed

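CAGE libraries of whole hippocampus were analysed as CPM per gene, deposited by the authors in 1 table of 22377 genes and 11 libraries. The submitters' processing notes name GRCm38 and the tools DESeq2 1.20.0, HISAT2 2.0.5 and BWA 0.7.17; the role of each, the counting rule, strand use and treatment of duplicates were not given in the sources used here. All CPM values (100% within 0.001) were whole multiples of 1 read, which gave the library totals. Of the reads, 93.0 to 96.1% fell in listed genes, and 3 reads correspond to 0.134 to 0.224 CPM. Exact Poisson intervals at 95% cover counting error only.

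The 16057 genes that averaged 1 CPM or more entered tests on log2(CPM + 1), so fold changes of low genes are understated. limma 3.58.1 (R 4.3.3, with a trend, two-sided, Benjamini-Hochberg threshold 0.05) was fitted to side differences, and, for LEV and time, to means of both sides per condition. Single libraries were compared by fold, with 1.5-fold on both sides as the line. The script was tested on simulated data. Alternatives covered pseudocounts, the filter, TMM, quantile and pan-neuronal scaling, the variance prior, edgeR 4.0.16 on recovered reads, libraries left out, each side alone and 8 libraries as independent, which also served for LEV by time. The 5 genes were named throughout. Of the other lists the counts, the most abundant members, the extremes of change and subunit neighbours were named; other list members were chosen after their values were seen. Likeness was ranked by Pearson r. Some genes that the naming rule selects are not reported here. The members, gene lists and marker lists were chosen with earlier results of these data known.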

Additional observations from a re-analysis of the deposited data

Results flagged for a closer look

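Gabra3 and Gabra4 differed with LEV in opposite directions at the 2 times, on both sides. For Gabra3 the mean log2 difference with LEV was 0.183 at 7 d and -0.136 at 1 m, where the non-infarcted difference was close to 0. For Gabra4 it was 0.125 at 7 d and -0.0865 at 1 m. Accordingly, Gabra4 differed between 1 m and 7 d by -0.0953 with LEV and by 0.116 without it. With the 8 libraries as independent, the LEV difference at 1 m minus that at 7 d was -0.32 for Gabra3 and -0.21 for Gabra4, and neither passed (limma adjusted p = 0.331 and 0.248). The means per condition leave no residual degrees of freedom for this test. Of all tested genes, 16.4% had LEV differences of opposite sign at 7 d and 1 m on both sides.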

How the results depend on the processing

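Replicates could not be paired between groups, because the labels give no replicate numbers and each group holds 1 library. The test of sides already pairs the sides of a condition. Of the counts of members called or past a fold, 97 were unchanged by an alternative and 2 moved. With 8 libraries as independent, 2 members (Gabra5, Gabrd) were called at 1 m against 7 d. The p-values of that fit are too small if both sides of a condition share animals. Its count over all genes is given with the time contrast above. With a pseudocount of 0.5, 1 member (Gabra3) passed 1.5-fold at 2 m against naive. With the pseudocount of 1, 5.71% of tested genes passed that line upward. Over all alternatives, the 1 m against 7 d difference was 0.24 to 0.40 for Gabrd, 0.20 to 0.35 for Gabra5 and -0.29 to -0.085 for Gabra2, and the LEV difference of Gabra2 was 0.089 to 0.31. Log2 differences near 0 changed sign, and the cause was not tested. For LEV, Gabrd gave 0.012 with TMM, 0.024 with quantile scaling and 0.051 on the infarcted side alone, and -0.065 to 0.045 with libraries left out. For LEV, Gabra3 gave -0.021 with pan-neuronal scaling, and -0.039 to 0.086 with libraries left out. For LEV, Gabra4 gave -0.025 with pan-neuronal scaling and -0.0061 on the infarcted side alone, and -0.015 to 0.050 with libraries left out. At 1 m against 7 d, Gabra4 gave -0.0088 on the non-infarcted side alone, and -0.020 to 0.041 with libraries left out. Between sides, Gabra3 gave -0.021 in the 2 conditions without LEV and -0.020 to 0.17 with a pair left out, the lowest without the 2 m pair; Gabra5 gave 0.032 in those 2 conditions, and Gabra2 -0.027 in the 3 conditions with LEV. For the change of side difference with LEV, pan-neuronal scaling gave 0.12 for Gabra4 and 0.072 for Gabra5; it moved the median of all genes to 0.13, against -0.04 with library totals. Leaving out the 2 libraries low in choroid plexus markers was added after the data were seen. Leaving out libraries was not run for changes of side difference, since no residual degrees of freedom remain. Gabra3 and Gabrd had 200 to 571 and 288 to 544 reads a library, which limits the precision of their values.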
